A study of Arabidopsis thaliana with 2 samples.

Results

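The phytosulfokine pathway was represented by 9 Arabidopsis thaliana genes, taken by locus: the 6 precursor genes PSK1 to PSK6, the receptor genes PSKR1 and PSKR2, and TPST. A gene counted as having a peak when the authors' deposited table assigned a peak to its locus. PSK5 (AT5G65870) was the member with a peak, so 1 of the 9 genes and 1 of the 612 ERF115-HBH peaks belonged to the pathway. Of all 27444 nuclear protein-coding genes, 564 (2.06%) had a peak, and no test was made against that share. For the other 8 genes the nearest loci with a peak on the same chromosome are described instead.

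Phytosulfokine is a secreted plant peptide that carries sulfated tyrosines. Its precursors are made as larger proteins, sulfated by the tyrosylprotein sulfotransferase TPST in the Golgi and cut by subtilases after secretion. The mature peptide binds the leucine-rich repeat receptor kinases PSKR1 and PSKR2, and it is known for promoting cell growth and division, including in plant cell suspensions.

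The series mapped the binding of ERF115, an AP2/ERF transcription factor, and its title ties ERF115 and phytosulfokine signalling to division of cells in the root quiescent centre. The ERF115-HBH group was 1 library from PSB-D cells (ecotype Landsberg erecta) with the genotype 35S::ERF115-HBH, in which the constitutive 35S promoter drives ERF115 fused to an affinity tag. The mock group was 1 library from wild type PSB-D cells. Both cultures were kept in the dark at 25 °C in medium with the auxin NAA and the cytokinin kinetin, and were fixed 2 days after subculturing with 0.75% formaldehyde for 10 minutes. The cells were therefore suspension cells with ERF115 made from a foreign promoter, not root quiescent centre cells at native levels. The labels for the ERF115-HBH library name no line or clone. Peaks of the ERF115-HBH library were the data used. No values of the mock library were used here, and the read depth of neither library is known. With 1 library per group there was no replicate, and no difference between groups was tested.

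The PSK5 peak lay at chromosome 5, 26350073 to 26351359 in TAIR10 coordinates, and was labelled intergenic 5' of PSK5. It was 1287 bp wide. The position that the authors' table gives inside the peak, 26350733, was 660 bp from its start and 626 bp from its end, 17 bp from the midpoint. The reference point of the peak was thus close to its middle.

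The peak score is the authors' value from the peak caller MACS, which multiplies the negative log10 of a peak's p by 10. PSK5 had a score of 59.13, which by that definition is a p of 1.22e-06. The list spans scores of 50.01 to 537.85, its median is 78.9 and its lower quartile is 60.6. PSK5 ranked 483 of 612, with 129 peaks scoring lower, and lay below the lower quartile. It was 9.12 score units above the lowest peak, whose score by the same MACS definition is a p of 9.98e-06.

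By score, 78.8% of all peaks lay above PSK5, as did 78.9% of those with its label and 74.8% of those on its chromosome. PSK5 ranked 218 of the 275 peaks labelled intergenic 5', whose median score was 78.05. It ranked 111 of the 147 peaks on chromosome 5, whose median was 79.57. The peaks just above it by score were those of AT3G25240 and ECI1 (AT1G65520), both at 59.26, and AT2G17705 at 59.19. Just below it were AT4G04730 at 59.11, the brassinosteroid receptor gene BRL3 at 59.06 and the AP2/ERF gene ERF10 at 59.02. The peak at PSK5 was therefore separated from those next to it in the list by no more than 0.13 score units on either side.

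**Figure D1:**
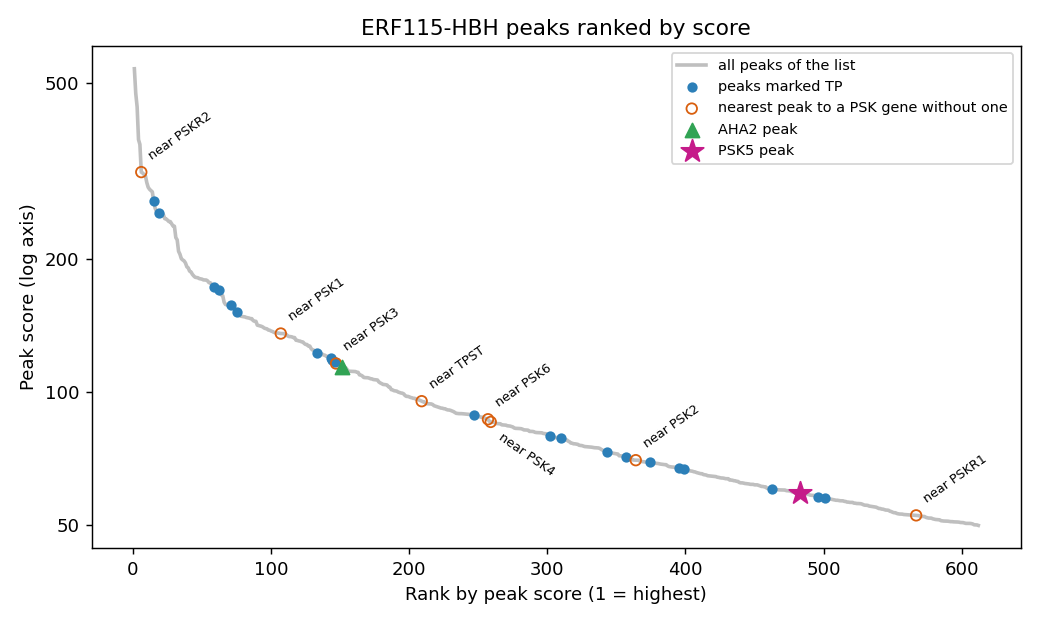
All 612 ERF115-HBH peaks by rank (x axis, 1 is the highest score) and peak score (y axis, log scale), with no replicates and no error bars. The star is the PSK5 peak (score 59.13, rank 483), the triangle the AHA2 peak (score 113.85, rank 151), filled points are the 22 peaks marked TP and open circles the nearest peak to each of the 8 phytosulfokine genes without one, from 52.69 near PSKR1 to 314.2 near PSKR2.

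The PSK5 peak was also narrow. Of the 612 peaks 96 (15.7%) were narrower, against a median width of 1894 bp for the whole list and 1831 bp for peaks labelled intergenic 5'. Among the 48 intergenic 5' peaks no wider than that of PSK5, the lowest score was 50.94, the median 75.43 and the highest 310.2, and PSK5 ranked 41. A narrow intergenic 5' peak thus often had a higher score than the peak at PSK5.

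**Figure D2:**
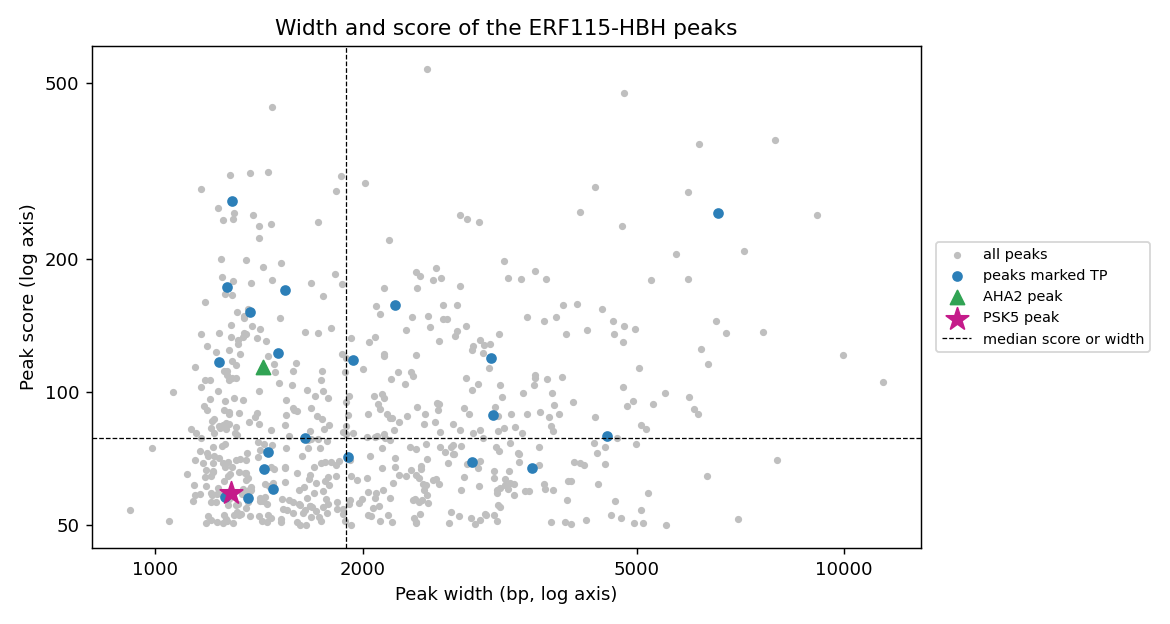
Width in bp (x axis, log scale) against peak score (y axis, log scale) for each of the 612 peaks, with dashed lines at the medians of 1894 bp and 78.9. The PSK5 peak (star, 1287 bp, score 59.13) sits at the lower left, below both medians, while the AHA2 peak (triangle, 1436 bp, score 113.85) is narrow with a score above the median.

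No other peak lay within 100 kb of the PSK5 peak. The next peak toward lower coordinates was 508 kb away and assigned to AT5G64650 (score 140.87, intergenic 5'). The next toward higher coordinates was 277 kb away and assigned to UGT72E2 (AT5G66690, score 111.39, intergenic 3'), which encodes a glucosyltransferase of monolignols. The gap from a peak to its nearest neighbour had a median of 37.4 kb over the list. It was larger than that of PSK5 for 36 of the 612 peaks (5.88%), so the PSK5 peak was among the more isolated ones.

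The order of genes, another measure of the same peak positions, gave the same picture. Along chromosome 5, PSK5 was 137 protein-coding genes from AT5G64650 and 93 from UGT72E2. Among the 564 protein-coding genes with a peak, the median number of steps to another locus with a peak was 11, and 17 of them (3.01%) were at least as far as PSK5. The genes directly beside PSK5, AT5G65860 and AT5G65880, had no peak. Nor did any of the 8 nearest protein-coding genes on either side, which include the ethylene synthesis gene ACS5, the receptor-like protein gene RLP57, the transcription factor gene MYB68 and the kinesin gene ZWI.

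**Figure D3:**
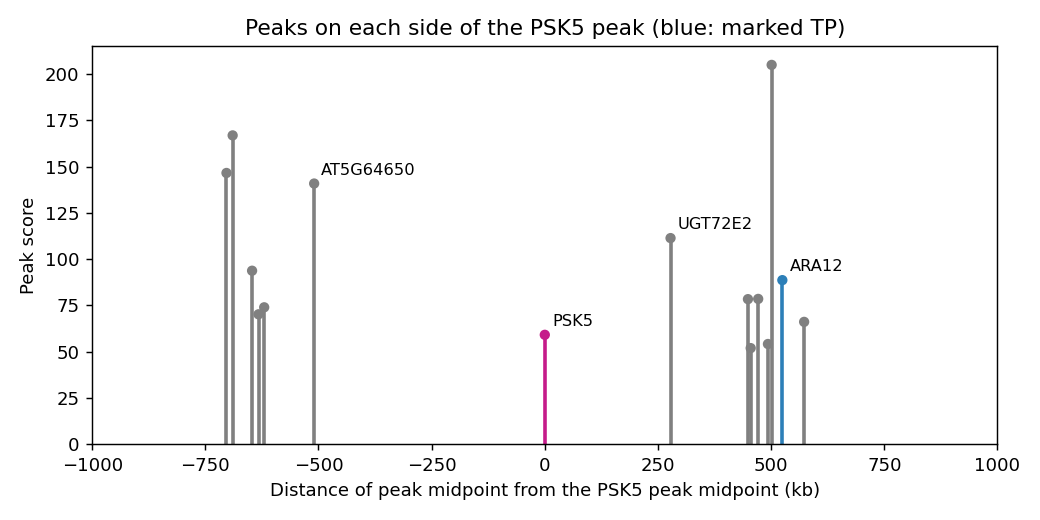
Peaks on chromosome 5 by the distance of their midpoint from that of the PSK5 peak (x axis, kb, 1000 kb to each side) and by peak score (y axis, linear from 0). The PSK5 peak (59.13) stands alone between the peaks of AT5G64650 (140.87) and UGT72E2 (111.39), and the marked peak at ARA12 (88.67) falls in a group of peaks further along.

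The PSK5 peak was 1 of 22 peaks, at 21 loci, that carry the mark TP in a column headed DE of the authors' deposited table. What TP stands for is not stated in the labels or the files. None of the other 8 phytosulfokine genes carried it, since none had a peak, and 0.0765% of all protein-coding genes did. Marked peaks scored from 57.64 to 270.26 with a median of 84.1, and PSK5 ranked 20 of the 22 by score. It ranked 19 of 22 by width, against a median of 1526 bp for the marked peaks. The marked peaks below it in score were those of SAUR52 (AT1G75590), a gene of the auxin-responsive SAUR family, at 58.07 and of AT1G10990 at 57.64.

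The remaining marked peaks covered several kinds of genes. At the top were AT3G24120 with 270.26, AHL17 (AT5G49700), which encodes an AT-hook DNA-binding protein, with 253.8, and AT3G15720 with 172.87. LecRK-VII.2 (AT4G28350), a lectin receptor kinase gene, had 169.94, and AT1G56140 had 157.32. UGT73D1, for a sugar transferase, followed with 151.96, then AT1G34300 with 122.71 and AT1G78830 with 119.64. The expansin gene EXP3, whose product loosens cell walls, had 118.02 and AT5G02890 had 117.23. The subtilase gene ARA12 had 88.67 and AT5G40150 had 79.57. The AP2/ERF gene CEJ1 carried the mark on both of its peaks, with 78.8 and 60.33. PAHX had 73.24, the bZIP factor gene TGA4 had 71.49, the LOB-domain gene LBD38 had 69.39, AT4G39270 had 67.41 and AT1G32700 had 67.07.

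For the pathway as a group, 1 of 9 genes had a peak (11.1%, Clopper-Pearson 95% interval 0.281 to 48.2%, counting error only), where 2.06% of the 27444 nuclear protein-coding genes did. That is 1 of the 6 precursor genes, neither of the 2 receptor genes, and not TPST. With a count of 1 the interval is wide and holds the background share. The 9 genes were chosen with earlier results of these data known, so neither the count nor the interval is a test against that share. Counting direct neighbours of a locus with a peak as well left the count at 1, where 6.16% of all protein-coding genes met that rule. Among the 306 peaks with the highest scores no member was left, where 1.04% of all protein-coding genes had such a peak, and among peaks scoring at least 100 none was left, where 0.656% did. The depth is unknown, so the lack of a peak at the other 8 genes is a statement about this list and not about the absence of binding.

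Among the precursor genes, PSK2 (AT2G22860) was nearest to a locus with a peak. By gene order it was 2 steps from AT2G22880, whose peak at chromosome 2, 9740301 to 9748276, was labelled intergenic 5' and scored 70.21. On its other side AT2G22790 was 10 steps away, with a coding 3' peak that scored 146.66. These peaks were 42.3 kb apart with no peak between them. The assignment to AT2G22880 is the authors', and the distance of the peak from PSK2 in bases was not measured, because gene coordinates of the build of the files were not used here.

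PSK1 (AT1G13590) was 6 steps from AT1G13610, whose peak at chromosome 1, 4663128 to 4664293, was labelled intergenic 3' and scored 135.69. On the other side it was 30 steps from HRS1, a regulator gene of phosphate and nitrate responses, with a score of 53.55. The 2 loci thus had peaks of quite different score on the sides of PSK1.

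PSK4 (AT3G49780) was 12 steps from BCAT3, a gene for a branched-chain amino acid transaminase, with a coding 5' peak at chromosome 3, 18422110 to 18423478, that scored 85.67. On the other side it was 18 steps from LBD38, whose TP-marked peak, labelled intergenic 3', scored 69.39. This was the 1 marked peak among the 16 that flank the 8 genes.

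PSK6 (AT4G37720) was 15 steps from HLS1, a gene required for the apical hook of seedlings, with an intergenic 5' peak at chromosome 4, 17657257 to 17658474, that scored 86.87. Its other flank, EDA40, was 17 steps away and had a coding 3' peak with a score of 157.81. PSK3 (AT3G44735) was the precursor gene farthest from a peak, 17 steps from AT3G44830, with an intergenic 5' peak at chromosome 3, 16368108 to 16369708, that scored 116.1. AT3G44380 on its other side was 41 steps away and had a score of 78.05, and the stretch between these peaks was 330 kb.

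TPST (AT1G08030), the single gene of the sulfation step in the list, was 14 steps from AT1G07901, with an intergenic 3' peak at chromosome 1, 2441817 to 2446760, that scored 95.43. NVL on the other side was 31 steps away, with a coding 5' peak that scored 72.66.

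The receptor genes differed in what lay near them. PSKR2 (AT5G53890) was 3 steps from emb2737 (AT5G53860), whose intergenic 5' peak at chromosome 5, 21864347 to 21865802, scored 314.2 and ranked 6 of 612. On its other side AT5G53940 was 7 steps away with a score of 78.89, and the 2 peaks were 32.3 kb apart, the shortest such stretch among the 8 genes. PSKR1 (AT2G02220), the main phytosulfokine receptor gene, was 9 steps from the plant defensin gene PDF2.1, whose intergenic 5' peak at chromosome 2, 537634 to 540738, scored 52.69, rank 567. Its other flank, the pseudogene AT2G02830, was 62 steps away and had a score of 89.24. The highest and the lowest score among the nearest peaks thus both belonged to neighbours of receptor genes.

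**Figure D4:**
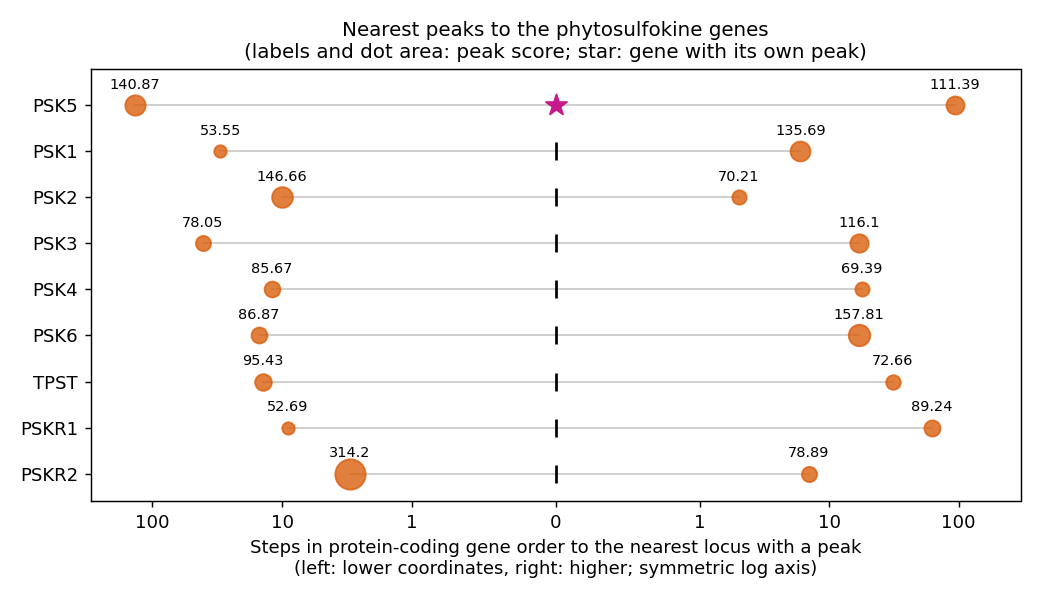
Steps in the order of protein-coding genes (x axis, symmetric log scale, lower coordinates to the left) from each of the 9 phytosulfokine genes to the nearest locus with a peak on each side. Dot area and the number above each dot give the peak score, and the star marks PSK5, which has its own peak but the farthest nearest neighbour, 93 steps away, while PSK2 and PSKR2 are 2 and 3 steps from one.

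Across the 8 genes without a peak, the nearest peak scored from 52.69 to 314.2 with a median of 91.2, and 7 of the 8 scored above the PSK5 peak, as did 78.8% of all peaks. Of these nearest peaks 5 were labelled intergenic 5', a label that 275 of all 612 peaks carried. The median number of steps to the nearest locus with a peak was 10.5, with a range from 2 to 17. For the 26880 protein-coding genes without a peak it was 20, with quartiles of 8 and 42. Counting genes that had a peak or were within 3 steps of a locus with one gave 3 of the 9 genes (PSK5, PSK2 and PSKR2), where 13.4% of all protein-coding genes met this rule. Within 10 steps there were 5 of 9, where 33.0% of all genes met it. PSK5 is in both counts through its own peak, being 93 steps from the nearest other locus with one. No test was made of either difference.

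A list of 28 partner genes around the pathway held 1 gene with a peak (3.57%, Clopper-Pearson 95% interval 0.0904 to 18.3%), near the background of 2.06%. This was AHA2 (AT4G30190, HA2 in the names table), a plasma membrane proton pump reported to associate with PSKR1. Its peak lay at chromosome 4, 14779285 to 14780720, labelled intergenic 5', with a score of 113.85 and rank 151. It scored above the list median, where the PSK5 peak scored below it, was 1436 bp wide and carried no mark.

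The other partners of the receptor had no peak, where 2.06% of all protein-coding genes had one. At that share, most groups of so few genes, here and below, would hold none. AHA1, the other pump, was 36 steps from a locus with a peak, and the ion channel gene CNGC17 was 17 steps from AHA2. None of the 4 co-receptor kinase genes BAK1, SERK1, SERK2 and SERK4 had one. SERK2 was the nearest of these, 6 steps from AT1G34300 (score 122.71, marked TP), and BAK1 was 88 steps from a locus with a peak. The subtilase gene SBT1.1 was 36 steps away.

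Genes of related sulfated peptides also had no peak. PSY1, for another tyrosine-sulfated peptide, was 9 steps from AT5G58740 (score 75.57), and PSY1R, for its receptor, was 19 steps from AT1G72500 (score 107.59). Of the root meristem growth factor genes, RGF2 was directly beside AT1G13610, the locus whose peak was also nearest to PSK1, while RGF1 was 38 and RGF3 114 steps from a locus with a peak. The receptor kinase genes GSO1 and GSO2 were each 80 steps away. Of the genes above phytosulfokine in the series title, ERF115 (AT5G07310) was 24 steps from WRKY26 (score 287.33), and CCS52A2, for an activator of the anaphase-promoting complex, was 46 steps from PME1 (score 71.84). CCS52A1, a related gene, had no peak.

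The 10 partners whose listed name is neither a symbol nor a synonym in the names table had none either. Of these AT5G48940 was directly beside HCT, a gene of lignin synthesis with an intergenic 5' peak that scored 52.9. AT3G47295 was 3 steps from AT3G47341 (score 55.55) and AT2G29995 was 4 steps from CYP5 (score 103.96). AT3G24240 was 13 steps from AT3G24120, whose marked peak scored 270.26. The rest were from 16 steps (AT1G34110) to 191 steps (AT4G10540) from a locus with a peak. Over the 27 partners without a peak the median was 36 steps, with a range from 1 to 191, where the 26880 genes above had 20.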

How the data were processed

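The submitters' processing notes name the peak caller MACS 1.4.2, the aligner BWA 0.5.9, CASAVA 1.8.2, Picard and SAMtools 0.1.18, and the TAIR10 build. Their parameters, filters and the control used in peak calling are not stated there. The authors deposited a list of 612 peaks with a score for each, and a copy with a locus, location label, position, Z score and mark per peak. Both copies held equal scores, and the Z score was the score standardised over the list. Scores rank peaks within this list and are not normalised for depth, which is unknown. Peak starts were converted to 1-based coordinates.

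Loci were named and ordered with an NCBI RefSeq table of assembly TAIR10.1, which held 600 of the 608 loci with a peak. As the build name differs, its coordinates were used only to put the loci in order, not to measure distances in bases. A step is 1 protein-coding gene, and a direct neighbour is 1 step away. Peaks at the 8 loci not in the table were left out of step counts. The table carried the listed name of all 9 members and of 18 of 28 partners.

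The named genes are the 9 loci, their flanking peaks, partners, peaks next to PSK5 by score or within 100 kb, and peaks with the same mark. Members and lists were chosen with earlier results of these data known. Counts, ranks and Clopper-Pearson intervals were computed with Python 3.11.15, pandas 2.3.3 and SciPy 1.17.1, and the step count was checked on simulated gene orders. Sequences and motifs were not analysed here. Alternatives are in the closing section.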

Additional observations from a re-analysis of the deposited data

How the results depend on the processing

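The number of phytosulfokine genes with a peak, 1, fell to 0 in the higher-scoring 306 peaks and to 0 among those scoring at least 100, because PSK5 scores below both. It stayed 1 with direct neighbours of the assigned locus counted and among peaks marked TP. The number of partners with a peak, 1, was kept by AHA2 under both score thresholds, rose to 3 with direct neighbours counted (AHA2, RGF2 and AT5G48940), a rule under which the share of all protein-coding genes rose from 2.06% to 6.16%, and fell to 0 among marked peaks. The share of peaks placed above PSK5, 78.8% by score, was 78.9% among intergenic 5' peaks, 74.8% on chromosome 5 and 84.0% when ranked by width. The median steps from the 8 genes without a peak, 10.5, were 13 with the 306 peaks and 16 when all nuclear loci were counted. The median of 20 for all protein-coding genes without a peak was not recomputed under these settings. The values 13 and 16 therefore cannot be set against it. With the 306 peaks PSK2 moved from 2 to 10 steps and PSKR1 from 9 to 62. The settings with marked peaks and with all nuclear loci were chosen after seeing the data. The planned searches of promoters for the GCC box and related motifs, and distances to the position inside each peak, were not run. No paired analysis was possible because there was 1 library per group, and no library could be left out.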
